A study of Mus musculus with 8 samples.

Results

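The genes described here are the nuclear-encoded subunits of the mitochondrial respiratory chain and ATP synthase, measured in sorted bone marrow cells of wild-type and Sca1-MALT1 transgenic mice. They were chosen by name: genes whose platform symbol begins with Nduf (complex I), Sdha to Sdhd (complex II), Uqcr (complex III), Cox4 to Cox8 (complex IV) or Atp5 (complex V), without assembly factors and without Cox6a2. This gave 81 of the 18193 genes tested: 36 for complex I, 4 for complex II, 8 for complex III, 16 for complex IV and 17 for complex V. A further 8 symbols that match the rule, among them the complex I subunits Ndufa11 and Ndufs6, were found only on probe sets shared with another symbol and were not analysed here. Each gene is represented by its brightest probe set, taken as the mean of the 8 arrays. The rule used names and mean brightness only, so the comparison between genotypes is a measurement it did not use. The genes were, however, chosen with earlier results of these data known.

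The respiratory chain sits in the inner mitochondrial membrane. Complexes I and II pass electrons from NADH and succinate to ubiquinone, complex III passes them on to cytochrome c, and complex IV hands them to oxygen. Complexes I, III and IV pump protons, and complex V, the ATP synthase, uses the proton gradient to make ATP. All but complex II combine the nuclear-encoded subunits described here with subunits encoded in mitochondrial DNA. Haematopoietic stem cells are known for relying on respiration less than their progeny, while plasma cells carry a large secretory and metabolic load.

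Total RNA of Sca1+Lin- bone marrow cells was linearly amplified and hybridised to 1-colour arrays, 1 per sample. The wild-type group had 3 samples and the Sca1-MALT1 group had 5. By its name the transgene joins the Sca1 promoter to the oncogene MALT1. The mouse Malt1 probe set read 9.34 in wild type and 9.83 in Sca1-MALT1 on average (difference 0.49, SE 0.22, limma adjusted p = 0.507); the labels do not say from which species the transgene came. The labels give no strain, age or sex, no transgene construct beyond that name, and no statement that samples came from separate animals, and the p-values therefore rest on sample-to-sample spread that could be technical. All values are log2 signals as deposited, with array medians of 6.40 to 6.48, and arrays correlated at r between 0.956 and 0.983 over all genes. Ly6a, which encodes Sca1, had no probe set with a single symbol and was not analysed here. The sort was for progenitor-rich cells, and the mean log2 signal of 10 stem and progenitor markers (Kit, Flt3 and others) ran from 9.24 to 10.66 in wild type and from 8.28 to 10.39 in Sca1-MALT1. Markers of mature cells were not dim either: 9 neutrophil markers averaged 12.04 to 12.74 in wild type and 10.33 to 13.81 in Sca1-MALT1, although levels cannot be compared from gene to gene. In bulk RNA, fewer cells of a type and less RNA per cell cannot be told apart.

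No respiratory chain gene passed the test between genotypes. In limma's test over all genes with Benjamini-Hochberg adjustment (threshold 0.05), 0 of 81 were called higher and 0 lower, and the lowest adjusted p was 0.271. Over all genes 0.044% were called higher and 0.044% lower, 0.0879% in all. The differences nevertheless leaned one way: 61 of the 81 genes (75.3%) had a lower mean in Sca1-MALT1, against 49.3% of all genes and 54.2% of the 3297 genes with a mean signal above 10. The median log2 difference (Sca1-MALT1 minus wild type) was -0.15, against 0.004 over all genes. Without adjustment 11 genes were lower and 1 was higher at p under 0.05, or 13.6% and 1.23% of the genes, where the shares over all genes were 4.49% and 5.69%, or 10.2% in either direction. In 7 genes every Sca1-MALT1 array read below every wild-type array, 8.64% of the genes against 2.87% of all genes, and in 1 gene every Sca1-MALT1 array read above (4.27% of all genes).

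**Figure D1:**
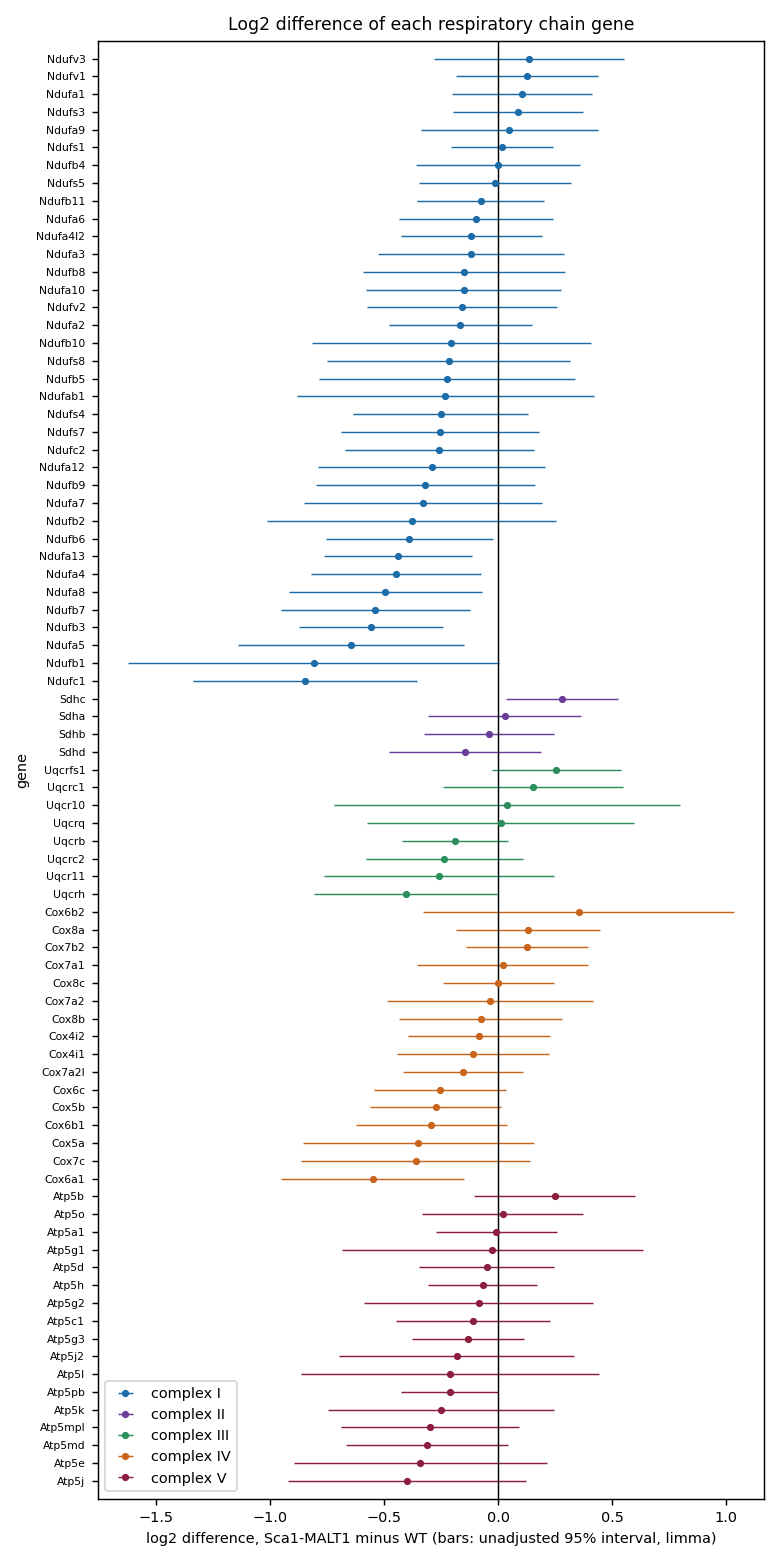
Log2 difference (Sca1-MALT1 minus WT, x axis) for each of the 81 genes, ordered within complexes, with unadjusted 95% intervals from limma. Most points lie left of 0, the range is -0.85 (Ndufc1) to 0.35 (Cox6b2), and 12 intervals leave out 0 before adjustment.

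The sizes were small. The largest difference, that of Ndufc1, was 1.80-fold, 6 genes differed by more than 0.5 log2 units, and the unadjusted 95% interval reached a median of 0.375 log2 units to either side. Of the 48 genes with several probe sets, 18 had at least 1 probe set whose difference had the opposite sign to that of the brightest. The median was -0.22 in complex I, with 29 of 36 genes lower, -0.13 in complex V (15 of 17 lower), -0.10 in complex IV (11 of 16), -0.09 in complex III (4 of 8) and -0.0043 in complex II (2 of 4). Complexes here follow gene names. Ndufa4, a subunit of complex IV, and its paralogue Ndufa4l2 are thus counted in complex I, and both were lower. The order of the complexes was not stable and no difference between them was tested. With the mean of each gene's probe sets, complexes III and V (-0.20 and -0.17) were below complex I (-0.13), and with dim genes left out complex IV (-0.25) was below complex I (-0.22). When single arrays were left out, the medians ran from -0.36 to -0.10 in complex I, -0.27 to 0.08 in complex III, -0.17 to -0.08 in complex IV and -0.32 to -0.05 in complex V, and without wild-type replicate 1 complex IV (-0.11) was just below complex I (-0.10).

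Many genes of the chain carry binding motifs of the same factors near their start: the nuclear respiratory factor NRF1, the ETS family member GABP and YY1. RefSeq promoters of assembly GRCm38.p6, from 250 bases before to 50 after the start, matched 67 of the 81 genes in 72 windows. On either strand, the letters CCGGAAG of the ETS family were found in 17 of the 72 windows (23.6%, against 8.86% of all 32851 windows in the table). The letters AAGATGG, part of the YY1 motif, were found in 10 windows (13.9% against 6.34%), and the palindromic motif of NRF1 in 4 (5.56% against 0.971%). By complex, the ETS letters were found in 4 of 34 windows for complex I (11.8%) and 6 of 18 for complex V (33.3%). Complexes II, III and IV had them in 2 of 3, 2 of 5 and 3 of 12 windows. Of the 34 complex I windows, 6 held the YY1 letters (17.6%) and 0 the NRF1 motif. A match describes letters only and is not evidence of binding. The 250 bases before the start are shown for the 3 genes with non-overlapping groups that hold an ETS match there (Ndufb6, Ndufb7 and Uqcrh) and for Cox6a1, the complex IV gene with the lowest p, which holds ETS and NRF1 matches; capitals mark the matches, which do not overlap each other.
Ndufb6 (chr4:40279422-40279671, minus strand, GRCm38.p6): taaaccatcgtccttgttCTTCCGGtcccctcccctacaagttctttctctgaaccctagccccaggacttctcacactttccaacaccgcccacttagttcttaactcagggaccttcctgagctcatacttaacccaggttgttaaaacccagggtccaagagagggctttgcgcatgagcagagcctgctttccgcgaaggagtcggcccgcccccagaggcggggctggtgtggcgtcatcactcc
Ndufb7 (chr8:83566508-83566757, plus strand, GRCm38.p6): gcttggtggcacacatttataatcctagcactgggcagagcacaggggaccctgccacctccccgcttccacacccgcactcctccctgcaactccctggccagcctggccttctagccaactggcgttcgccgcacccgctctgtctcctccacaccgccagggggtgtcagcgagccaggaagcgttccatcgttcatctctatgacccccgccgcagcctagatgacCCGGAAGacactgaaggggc
Uqcrh (chr4:116075071-116075320, minus strand, GRCm38.p6): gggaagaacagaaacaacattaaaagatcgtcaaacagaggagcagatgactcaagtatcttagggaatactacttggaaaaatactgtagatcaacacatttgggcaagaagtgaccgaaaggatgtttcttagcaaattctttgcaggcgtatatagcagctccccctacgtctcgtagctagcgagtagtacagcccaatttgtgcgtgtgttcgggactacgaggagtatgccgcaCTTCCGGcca
Cox6a1 (chr5:115348959-115349208, minus strand, GRCm38.p6): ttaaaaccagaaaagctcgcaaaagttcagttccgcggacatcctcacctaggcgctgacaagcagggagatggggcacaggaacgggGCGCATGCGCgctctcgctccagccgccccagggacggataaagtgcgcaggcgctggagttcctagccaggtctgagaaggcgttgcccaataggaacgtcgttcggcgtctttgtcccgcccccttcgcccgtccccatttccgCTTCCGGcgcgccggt

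Complex I takes electrons from NADH in an arm that reaches into the matrix and pumps protons in an arm within the membrane. The accessory subunits of the membrane arm held the lowest values: 17 of 19 were lower, with a median of -0.26, and 4 of the 7 genes whose groups did not overlap in the lower direction were among them. Ndufb3, a small membrane-arm subunit, read 11.56, 11.71 and 11.38 in wild-type replicates 1 to 3 and 11.06, 11.13, 10.68, 11.09 and 11.02 in Sca1-MALT1 replicates 1 to 5. All Sca1-MALT1 values lie below all wild-type values, by at least the step from 11.13 to 11.38, and replicate 3 is the lowest. The difference was -0.56 (SE 0.14, limma adjusted p = 0.271).

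Ndufc1, which lies in the same arm, read 12.15, 11.80 and 11.34 in wild type and 10.78, 11.30, 10.67, 11.08 and 10.77 in Sca1-MALT1. The groups just miss each other, with wild-type replicate 3 next to Sca1-MALT1 replicate 2, and the difference was -0.85 (SE 0.21, adjusted p = 0.271). Its second probe set differed by -0.66. Ndufb7, a subunit on the intermembrane-space side, read 12.46, 12.27 and 12.46 in wild type and 11.66, 12.17, 11.56, 12.21 and 11.69 in Sca1-MALT1. Sca1-MALT1 replicates 2 and 4 stand close to wild type and the other three well below it. The difference was -0.54 (SE 0.18, adjusted p = 0.381), and Ndufb6, another membrane-arm subunit, differed by -0.39 (SE 0.16, adjusted p = 0.458) with wild type at 11.91 to 12.07 and Sca1-MALT1 at 11.22 to 11.86. Ndufb7 and Ndufb6 are named because their groups did not overlap, which was seen in the values.

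Among the rest of the membrane arm, Ndufa13, also known as GRIM-19, differed by -0.44 (SE 0.14, adjusted p = 0.368), from 13.18 ± 0.24 (SD, n = 3) to 12.75 ± 0.15 (n = 5). Its lowest wild-type array, 12.91, was below the highest Sca1-MALT1 array, 12.95. The 2 membrane-arm genes with a higher mean were Ndufa1, at 0.11, and Ndufb4, at 0.0006. The only probe set used for Ndufb4 averaged 4.78, below every array median, so its value says little about the transcript; 10 probe sets that list a complex I symbol together with another symbol, such as that of a paralogue or pseudogene, were not used.

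The catalytic part of complex I was evenly divided. Of the 6 core subunits of the matrix arm measured, 3 differences were above 0 and 3 below it (median -0.07). Ndufv1, which binds NADH and the flavin, read 12.09, 11.80 and 11.79 in wild type and 11.98, 11.93, 11.79, 12.17 and 12.22 in Sca1-MALT1. The groups overlap over most of their range, and the difference was 0.13 (95% interval -0.19 to 0.44, adjusted p = 0.801). Ndufs1, which carries iron-sulphur clusters, had the narrowest interval in complex I, 0.02 (-0.21 to 0.24). Ndufs3, Ndufv2, Ndufs8 and Ndufs7, the other four, differed by 0.09, -0.16, -0.22 and -0.25. Before adjustment, the intervals of Ndufs1, Ndufs3 and Ndufv1 leave out a difference as large as that of Ndufb3. Those of Ndufv2, Ndufs8 and Ndufs7 include it, and the difference between subunit classes was not tested.

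The 8 accessory subunits of the matrix arm lay between, with 6 lower and a median of -0.21. Ndufa5, next to the quinone-binding module, differed most of them, at -0.64 (SE 0.22, adjusted p = 0.380). It read 11.47, 11.29 and 11.04 in wild type and 10.60, 11.25, 10.30, 10.43 and 10.54 in Sca1-MALT1, where replicate 2 alone reached the wild-type range. Ndufv3 stood at 0.14 and Ndufa9 at 0.05. Ndufab1, the mitochondrial acyl carrier protein that is also a subunit of complex I, differed by -0.23 (SE 0.28), and all 5 of its probe sets were lower.

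**Figure D2:**
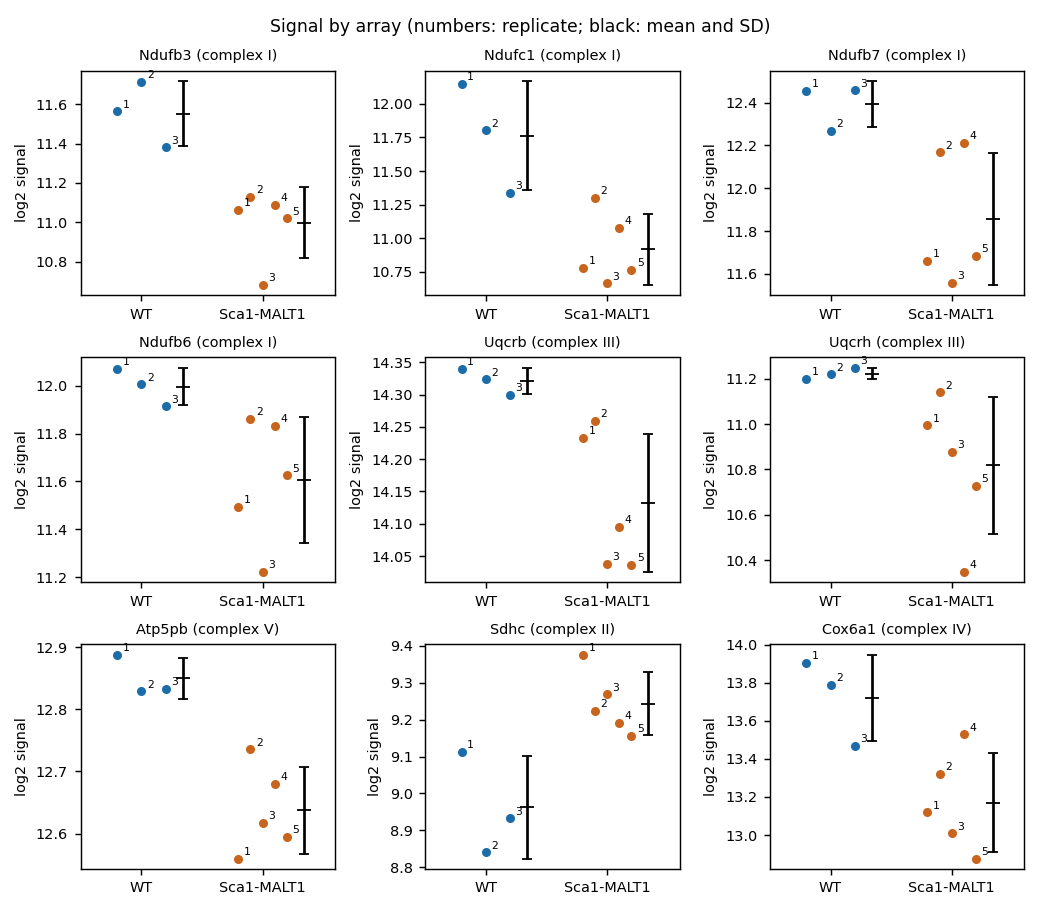
Log2 signal (y axes, each with its own range) in 3 WT and 5 Sca1-MALT1 arrays for 9 genes, with the replicate number beside each point and the group mean and SD in black. The groups do not overlap for 8 of the genes, of which Sdhc alone is higher in Sca1-MALT1, and overlap for Cox6a1.

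Complex II, succinate dehydrogenase, is the only complex with no mitochondrially encoded subunit, and it is also an enzyme of the citric acid cycle. Sdhc, a membrane anchor that helps to form the ubiquinone site, read 9.11, 8.84 and 8.93 in wild type and 9.38, 9.22, 9.27, 9.19 and 9.16 in Sca1-MALT1. Every Sca1-MALT1 value is above every wild-type value, by 0.28 on average (SE 0.11, adjusted p = 0.426), and its second probe set differed by 0.02. The groups of Sdhc overlapped after quantile normalization, after centring arrays on their medians and in the mean of its probe sets. The other anchor, Sdhd, differed by -0.14 (SE 0.15, adjusted p = 0.786). The catalytic subunits were close to 0: the flavoprotein gene Sdha at 0.03 (95% interval -0.31 to 0.37) and the iron-sulphur gene Sdhb at -0.04 (-0.32 to 0.25).

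In complex III the core proteins and the Rieske protein had a median of 0.15 and the small subunits one of -0.19. The Rieske iron-sulphur gene Uqcrfs1 read 11.37, 11.69 and 11.42 in wild type and 11.82, 11.64, 11.67, 11.68 and 11.94 in Sca1-MALT1. Wild-type replicate 2 lies within the Sca1-MALT1 range and the other two lie below it, and the difference was 0.26 (SE 0.12, adjusted p = 0.529). The core protein genes Uqcrc1 and Uqcrc2 differed by 0.15 and -0.24 (SE 0.17 and 0.15, adjusted p = 0.813 and 0.648). Among the 5 small subunits, Uqcrh, the hinge protein beside cytochrome c1, read 11.20, 11.22 and 11.25 in wild type and 10.99, 11.14, 10.88, 10.35 and 10.73 in Sca1-MALT1. The wild-type values are tight and all above the scattered Sca1-MALT1 values, with a difference of -0.40 (SE 0.17, adjusted p = 0.488), while its second probe set differed by -0.04. Uqcrb, which lies near a quinone site, differed by -0.19 (SE 0.10, adjusted p = 0.572), with wild type at 14.30 to 14.34 and Sca1-MALT1 at 14.04 to 14.26. The remaining small subunits had wild-type SDs above the difference between groups: Uqcr10 read 10.23, 9.72 and 8.74 in wild type and differed by 0.04 (SE 0.33).

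In complex IV, cytochrome c oxidase, 8 of 9 ubiquitous nuclear subunits were lower, with a median of -0.27. Cox6a1, the form of subunit VIa found outside muscle, read 13.90, 13.79 and 13.47 in wild type and 13.12, 13.32, 13.01, 13.53 and 12.88 in Sca1-MALT1. Only Sca1-MALT1 replicate 4 reaches into the wild-type range. The difference was -0.55 (SE 0.18, adjusted p = 0.362), and its second probe set differed by -0.12. Cox6b1, which faces the intermembrane space, Cox5b and Cox6c differed by -0.29, -0.27 and -0.25 (adjusted p = 0.537, 0.509 and 0.542). Cox4i1, a regulatory subunit that binds ATP, differed by -0.11 (SE 0.15, adjusted p = 0.843), Cox7a2 by -0.03 (0.0038 after quantile normalization) and Cox8a by 0.13. Ndufa4, which carries a complex I name but is a subunit of complex IV, differed by -0.45 (SE 0.16, adjusted p = 0.407); its values were 11.41, 11.05 and 10.80 in wild type and 10.38 to 10.85 in Sca1-MALT1. Cox7a2l, a factor that joins complexes III and IV in supercomplexes, differed by -0.15 (SE 0.11, adjusted p = 0.702).

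The 6 tissue isoforms of complex IV had a median difference of 0.01, with 4 higher and 2 lower. Cox4i2 of lung, Cox7a1 and Cox8b of heart and muscle, and Cox7b2 of testis had means of 3.50 to 6.09, below every array median; the deposited values carry no detection call for such dim probe sets. Their differences ran from -0.08 to 0.13. Cox8c and Cox6b2 of testis differed by 0.0017 (SE 0.11) and 0.35 (SE 0.30, adjusted p = 0.745), and the signs of Cox8c and Cox7a1 turned with array median centring. The second probe set of Cox8c differed by 0.43. Cox6b2 read 7.50, 6.74 and 6.40 in wild type and 6.70 to 7.64 in Sca1-MALT1, which overlap. Ndufa4l2, a paralogue of Ndufa4 induced by low oxygen, averaged 6.37 and differed by -0.12 (SE 0.14, adjusted p = 0.818).

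Complex V has a catalytic head and central stalk, a rotating ring in the membrane and a peripheral stalk. In the head, Atp5b, the catalytic beta subunit, read 12.56, 12.73 and 12.47 in wild type and 12.68, 12.59, 12.72, 13.10 and 13.07 in Sca1-MALT1. Replicates 4 and 5 are above wild type and the others within its range (difference 0.25, SE 0.15, adjusted p = 0.637). Atp5a1, the alpha subunit, differed by -0.0078 (95% interval -0.27 to 0.26), while Atp5e, the small epsilon subunit, differed by -0.34 (SE 0.24). The genes of the ring, Atp5g1, Atp5g2 and Atp5g3, encode the same mature protein, and they differed by -0.03, -0.09 and -0.13.

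In the peripheral stalk, Atp5pb, the b subunit, read 12.89, 12.83 and 12.83 in wild type and 12.56, 12.74, 12.62, 12.68 and 12.60 in Sca1-MALT1. The groups do not overlap, although the difference was small at -0.21 (SE 0.09, adjusted p = 0.491), and its second probe set differed by -0.19. Atp5j, coupling factor F6, differed by -0.40 (SE 0.23, adjusted p = 0.599), with Sca1-MALT1 replicate 2, at 12.42, inside the wild-type range of 12.15 to 12.52. All 5 small membrane subunits were lower, with a median of -0.25. Of these, Atp5md, which takes part in dimer formation, differed by -0.31 (SE 0.16, adjusted p = 0.542) and Atp5mpl, a proteolipid, by -0.30 (SE 0.17, adjusted p = 0.595).

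The arrays differed in how far they stood from the gene means. Wild-type replicate 1 was the highest of the 8 arrays for 41 of the 81 genes (50.6%, against 13% of all genes), and Sca1-MALT1 replicate 3 was the lowest for 40 (49.4% against 13.3%). Taken as the mean deviation of the 81 genes from their own means over 8 arrays, wild-type replicates 1, 2 and 3 stood at 0.27, 0.13 and -0.09 log2 units. Sca1-MALT1 replicates 1 to 5 stood at -0.11, 0.02, -0.29, 0.05 and 0.03. Wild-type replicate 3 thus lay below 3 of the 5 Sca1-MALT1 arrays, and the groups overlap. Complexes I, III, IV and V each had wild-type replicate 1 highest and Sca1-MALT1 replicate 3 lowest, while complex II stayed between -0.07 and 0.09 in every array.

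**Figure D3:**
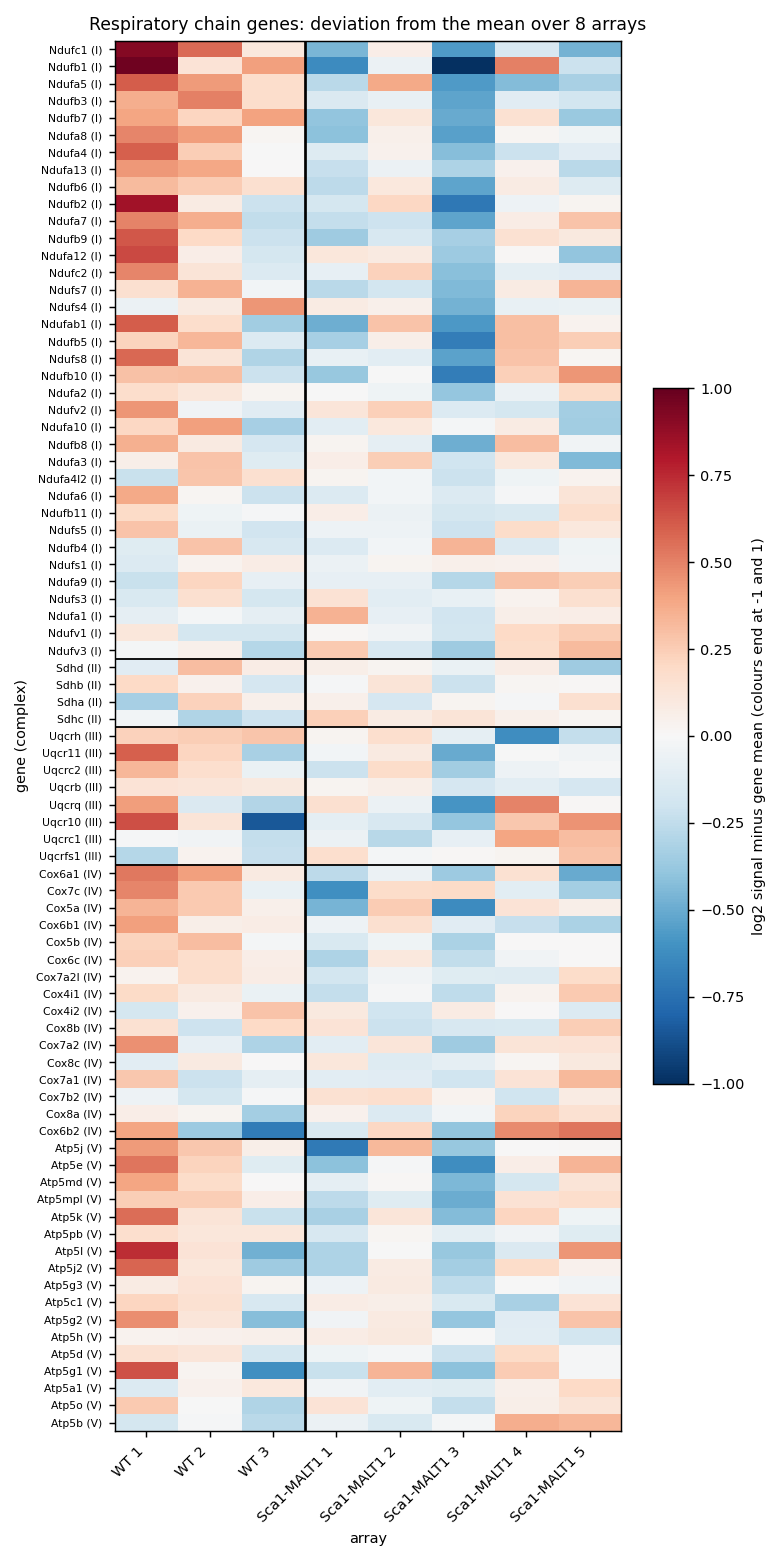
Deviation of each gene's log2 signal from its own mean over 8 arrays (colour), with genes in rows by complex and arrays in columns, WT left of the vertical line. The column of WT replicate 1 is mostly red and that of Sca1-MALT1 replicate 3 mostly blue.

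The median moved when single arrays were left out. It was -0.08 without wild-type replicate 1, -0.10 without Sca1-MALT1 replicate 3, and -0.26 without wild-type replicate 3. Without both wild-type replicate 1 and Sca1-MALT1 replicate 3, the median was -0.03, with complex I at -0.05, complex III at 0.14, complex IV at -0.09 and complex V at -0.01. These arrays were picked after the values were seen, as the highest wild-type and the lowest Sca1-MALT1 array for these genes, so a difference nearer to 0 follows from the choice. In that fit 10 genes had lower non-overlapping groups and 5 higher ones. Groups separate more easily by chance with fewer arrays, and the shares over all genes were not counted in that fit. These counts therefore cannot be compared with those from the full set of arrays. Ndufb3 and Ndufc1 stood at -0.47 and -0.59 in the same fit (limma adjusted p = 0.745 and 0.817). The number of genes lower at an unadjusted p under 0.05 dropped from 11 to 2 without wild-type replicate 1 and to 6 without Sca1-MALT1 replicate 3 or without wild-type replicate 2. Fits with fewer arrays have less power to reach that p for any gene. The shares over all genes were not counted in them, so these drops have no background to be set against. Without wild-type replicate 1, Ndufb3 still differed by -0.55 (limma adjusted p = 0.547). No gene of the chain passed the adjusted threshold in any of these fits.

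**Figure D4:**
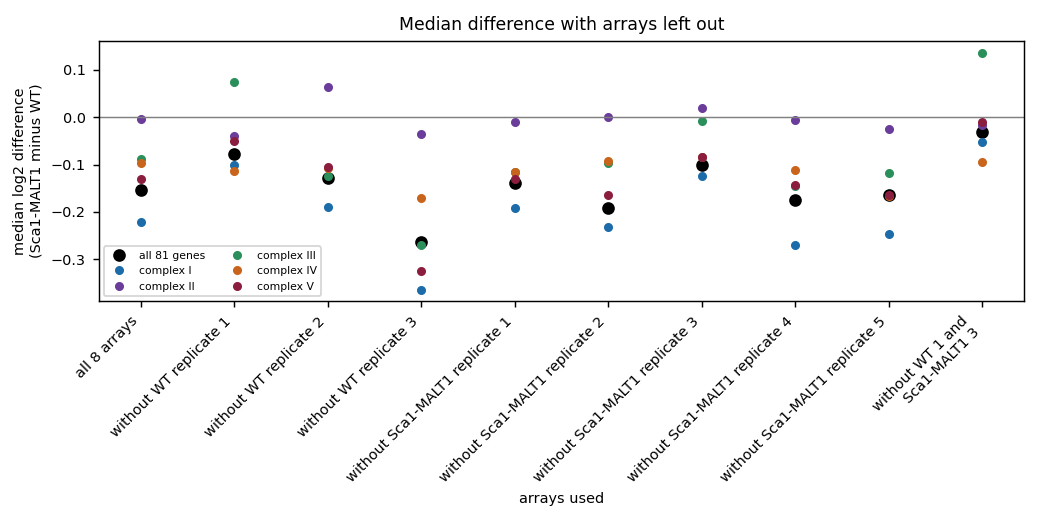
Median log2 difference (y axis) of all 81 genes in black and of each complex in colour, with all 8 arrays, with each array left out in turn, and without both WT replicate 1 and Sca1-MALT1 replicate 3. The black points lie below 0 in every setting and range from -0.26 to -0.03.

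The lists of the mitochondrial ribosome, import and assembly factors also had more genes lower than higher in Sca1-MALT1. Their mean deviations were, like those of the respiratory chain, highest in wild-type replicate 1 and lowest in Sca1-MALT1 replicate 3. The same held for the cytosolic ribosome and for chain-linked genes outside the naming rule. In the lists of the citric acid cycle, glycolysis and fatty acid oxidation, Sca1-MALT1 replicate 3 was lowest too (-0.23, -0.34 and -0.14). Their highest array was not wild-type replicate 1. Antioxidant genes and regulators had other arrays at both ends. The arrays between did not keep 1 order across lists. Of the 76 mitochondrial ribosome genes, 65 were lower in Sca1-MALT1, with a median of -0.18 and 0 past the threshold; their mean deviation was 0.30 in wild-type replicate 1 and -0.32 in Sca1-MALT1 replicate 3. Mrpl39, Mrps33 and Mrpl33, the members with the lowest p, differed by -0.50, -0.52 and -0.60 (adjusted p = 0.351, 0.377 and 0.404). Of 19 genes of protein import into mitochondria 15 were lower (median -0.18), led by Tomm7 of the outer-membrane translocase at -0.52 (adjusted p = 0.458), Timm44 at -0.37 and Grpel1 at -0.34. Of 45 assembly factor genes 27 were lower and 18 higher (median -0.12), with the complex III factor Uqcc3 at -0.45 (SE 0.12, adjusted p = 0.295), the complex II factor Sdhaf2 at -0.51 and the complex IV factor Pet100 at -0.57. At an unadjusted p under 0.05, 4 assembly factors were lower and 3 higher, with 2 non-overlapping in each direction and a highest difference of 0.49. Over all genes the shares at that limma p were 4.49% lower and 5.69% higher. The shares without overlap were 2.87% lower and 4.27% higher. Genes of the cytosolic ribosome, which are not mitochondrial, were lower in 35 of 48 cases with a median of -0.07. Their mean deviation was 0.22 in wild-type replicate 1 and -0.16 in Sca1-MALT1 replicate 3. Among these genes Rps4l, Rpl27a and Rps25 differed by -1.63, -0.48 and -0.58 (adjusted p = 0.271, 0.282 and 0.362).

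Chain-linked genes outside the naming rule were lower in 15 of 18 cases, with a median of -0.13. Among them Slc25a4, an ADP/ATP carrier of the inner membrane, differed by -0.43 (adjusted p = 0.360) with non-overlapping groups, Gpd2, the glycerol phosphate dehydrogenase that feeds ubiquinone, by -0.53 and Etfb, of the electron transfer flavoprotein, by -0.44. Genes of the citric acid cycle and pyruvate dehydrogenase were lower in 12 of 18 cases (median -0.09), with fumarase Fh1 at -0.45, Idh2 at -0.67 and citrate synthase Cs at -0.37 (adjusted p = 0.458, 0.562 and 0.568). Fatty acid oxidation genes were lower in 9 of 14 cases (median -0.05), with Cpt1a, the gatekeeper of fatty acid entry, at 0.40, Echs1 at -0.49 and Decr1 at -0.38. Glycolysis was evenly divided, 11 lower and 10 higher (median -0.0029), with Pfkp at 0.61, Hk1 at 0.35 and the glucose transporter Slc2a1 at 0.47 (adjusted p = 0.394, 0.560 and 0.570). Antioxidant genes of mitochondria had 3 of 9 lower (median 0.03), with Nnt at -0.46, Txn2 at 0.15 and Txnrd2 at 0.28.

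Regulators of mitochondrial genes did not lean lower. Among the 22 measured, 12 differences were above 0 and 10 below it (median 0.02). The deacetylase Sirt1 differed by 0.53 and the AMP kinase subunit Prkaa1 by 0.50 (adjusted p = 0.339 and 0.386), each with every Sca1-MALT1 array above every wild-type array, and the transcription factor Sp1 differed by 0.43. Across these lists 0 genes passed the threshold.

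**Figure D5:**
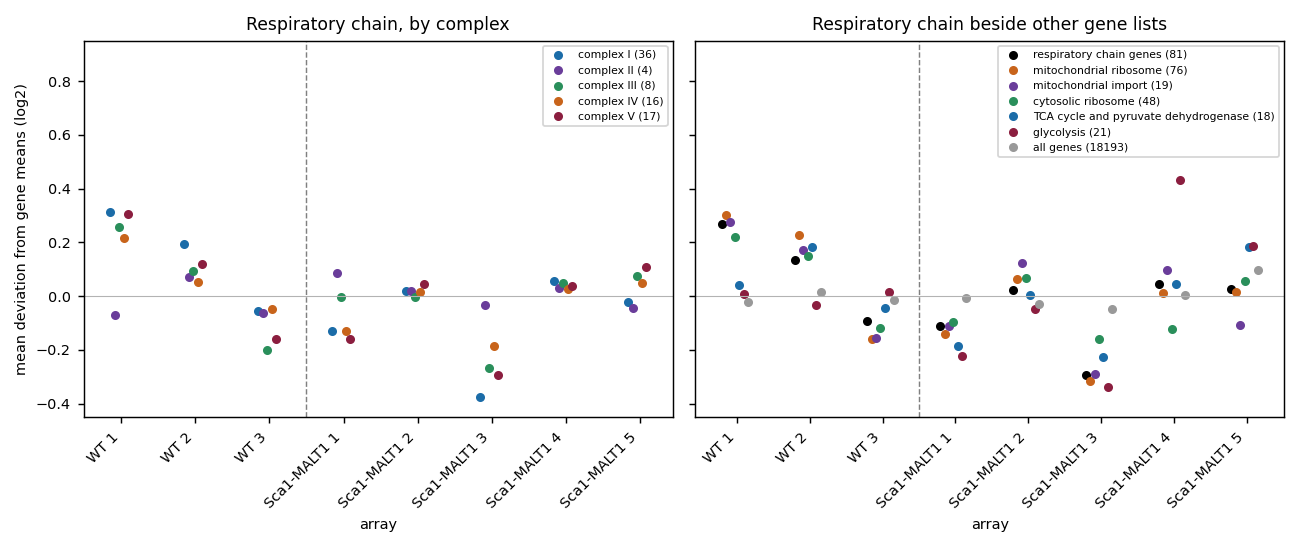
Mean deviation of a gene list from its genes' own means (log2, y axis) in each array (x axis), with the 5 complexes on the left and the respiratory chain beside other lists on the right (number of genes in brackets). The respiratory chain, mitochondrial ribosome and mitochondrial import points lie together in most arrays, from near 0.3 in WT replicate 1 to near -0.3 in Sca1-MALT1 replicate 3.

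Other properties of wild-type replicate 1 and Sca1-MALT1 replicate 3 were as follows. The stem and progenitor markers deviated by 1.12 in wild-type replicate 1, their highest array, and by -0.64 in Sca1-MALT1 replicate 3, with their lowest value, -1.27, in Sca1-MALT1 replicate 1. The neutrophil markers had their lowest value, -1.67, in Sca1-MALT1 replicate 3 and stood at 0.04 in wild-type replicate 1. The 15 cell cycle markers deviated by 0.37 in wild-type replicate 1 and 0.21 in Sca1-MALT1 replicate 3. The 8 plasma cell markers were all higher in Sca1-MALT1 (median 2.36, Jchain past the threshold), with array means of 8.94 to 9.35 in wild type and 10.53 to 12.50 in Sca1-MALT1, while the 9 B cell markers were all lower (median -1.05, Igll1 and Vpreb1 past it), with array means of 10.06 to 10.68 in wild type and 7.96 to 9.22 in Sca1-MALT1. Of the other lists, T cell markers were higher in 6 of 6 genes and erythroid markers in 8 of 9. NK cell markers were higher in 3 of 6, megakaryocyte markers in 3 of 6 and monocyte markers in 2 of 7. Stem and progenitor markers were higher in 3 of 10 genes (median -0.98) and neutrophil markers in 1 of 9 (median -0.95). Sca1-MALT1 replicate 3 was the highest array for erythroid markers (0.82) and the lowest for monocyte markers (-0.91). Wild-type replicate 1 was the lowest array for plasma cell markers (-1.69). The 3' minus 5' signal of the beta-actin control probe sets, a measure of RNA integrity and amplification length, was 2.14 in wild-type replicate 1 and 1.29 in Sca1-MALT1 replicate 3, within a range of 1.25 to 2.49 over all arrays. For Gapdh these were 2.70 and 2.75, within 2.25 to 3.20. The part of cell composition and RNA quality in the differences of the respiratory chain genes was not tested.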

How the data were processed

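Expression values are the authors' deposited RMA output (background correction, quantile normalization and probe summary), per the submitters' processing notes, on a log2 scale judged from their range of 2.73 to 15.41. The version of RMA is not given in the sources used here, nor is the set of arrays processed jointly. Of 45101 probe sets, 64 controls, 932 with several gene symbols and 9160 unlisted ones were left out. Symbols were updated with a RefSeq gene table of GRCm38.p6. Values were used with no filter and no further normalization. RMA gives no detection call.

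All 18193 genes were fitted with limma 3.58.1 (lmFit, eBayes) in R 4.3.3, genotype as the only term, 3 against 5 arrays, Benjamini-Hochberg adjustment over all genes, two-sided, threshold 0.05. The script was tested on simulated data. The number of arrays limits the precision. The members and lists were chosen with earlier results of these data known. Named genes were the 4 members per complex with the lowest unadjusted p, complex IV isoforms and up to 3 genes per list; members with non-overlapping groups and members named for their role were added after values were seen. Subunit classes follow textbook structure. Alternatives were renormalization, median centring, a filter on dim genes, other uses of probe sets, other variance models, array weights, a replicate block, the member rule on updated symbols, and fits without single arrays.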

Additional observations from a re-analysis of the deposited data

Results flagged for a closer look

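In 2 of 38 items tested, 1 of the 5 Sca1-MALT1 arrays stood far from the other four, with a gap to its neighbour above Dixon's critical share of 0.71 of the group's range; chance flags about 1 in 20. Both concern replicate 3. Ndufb3 read 10.68 there against 11.02 to 11.13 in the other Sca1-MALT1 arrays, and the mean deviation of the complex III genes was -0.27 there against -0.003 to 0.08.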

How the results depend on the processing

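Under every alternative run, 0 members and 0 genes of the pathway lists passed limma's adjusted threshold, and the median over members stayed below 0. Over all genes, 16 passed, against 28 with median centring, 28 with array weights, 8 to 38 when single arrays were left out and 2 without both end arrays (wild-type replicate 1 and Sca1-MALT1 replicate 3, chosen after seeing the data). Replicate numbers did not pair the arrays (r of deviations -0.217, -0.038 and 0.006). With the replicate block limma called 0 genes, with 16 members lower and 0 higher at an unadjusted p under 0.05. The share over all genes at that p was not counted with the block, so the 16 cannot be compared with the count of the main fit. Sca1-MALT1 replicates whose number has no wild-type array do not inform the difference in that fit. It therefore rests on fewer arrays and has less power to call genes.

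Members higher at an unadjusted p under 0.05 (1) became 0 with quantile normalization, median centring, dim genes left out, the mean of probe sets and the trend and robust variance, 0 to 2 without single arrays and 2 without both end arrays. Members lower (11) ran, with all arrays kept, from 8 with dim genes left out to 16 with array weights and with the replicate block. They became 2 to 14 without single arrays and 2 without both. Non-overlapping higher members (1) became 0 with quantile normalization, median centring and the mean of probe sets, 2 with every probe set, 1 to 4 without single arrays and 5 without both. Non-overlapping lower members (7) became 12 with median centring, 3 with the mean of probe sets, 12 with every probe set, 7 to 23 without single arrays and 10 without both. These counts are not alike, since groups separate more easily by chance with fewer arrays. With every probe set, a gene counted if any of its probe sets did not overlap. Shares over all genes were not counted in these settings. The complex IV median was -0.25 without dim genes.

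Signs turned in 31 of 570 values of named members, none of them called. They were Cox7a2 (0.0038) and Cox8c (-0.0227) with quantile normalization, Cox7a1 (-0.005) and Cox8c (-0.0235) with median centring, and Sdha (-0.019) with the mean of probe sets. Sdha and Cox8c stood at -0.0476 and -0.0472 with array weights, and Sdha, Cox7a1 and Cox8c at -0.0117, -0.1263 and -0.035 with the replicate block. Without both end arrays Sdha, Sdhb, Cox4i1, Cox7a2, Cox8b and Cox8c stood at -0.1322, 0.0992, 0.0029, 0.2699, 0.0099 and -0.0263. Without single arrays Sdha ran from -0.1287 to 0.1547, Sdhb from -0.1343 to 0.0487, Cox7a2 from -0.1991 to 0.1844, Cox8c from -0.0487 to 0.0481, Cox7a1 from -0.0808 to 0.161 and Cox4i2 from -0.1966 to 0.0338. The cause was not tested. With 3 wild-type arrays and no detection call, neither small differences nor dim genes could be resolved.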
